A study of Mus musculus with 24 samples.

Results

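The comparison of the VDD LF vs. VDD HF females covered 6 of the 24 RNA-seq libraries of the series, all 3 libraries of each group, and every gene of the table made from them. The mice were C57BL/6J (C57BL/6JRJ in the methods of the study) daughters of mothers fed a diet without vitamin D3 (0.0 IU/g; 1.0 IU/g in the CTRL diet) for 8 weeks before mating, and of mothers returned to the control diet after birth. From the age of 6 weeks the daughters received AIN-93M, the low fat (LF) diet, or a high fat (HF) diet with 45% of energy from fat for 8 weeks, and polyadenylated RNA of their retroperitoneal white adipose tissue was sequenced. Both groups therefore shared the maternal vitamin D deficiency (VDD) and differed in their own diet. The libraries of the LF mice are called LF-A, LF-B and LF-C and those of the HF mice HF-A, HF-B and HF-C, in the order of their mouse numbers, and values are given in that order throughout. The sources used here do not give the litter of each mouse, so the p-values measure the spread between these mice.

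Retroperitoneal fat is a visceral depot behind the abdominal cavity, close to the kidney and the adrenal gland. When dietary fat exceeds need, white adipocytes enlarge, secrete more leptin and switch on genes of lipid storage such as Mest, while stromal cells and macrophages of the depot can divide. Part of the depot can also hold adipocytes with the thermogenic programme of brown fat, in which Ucp1 uncouples respiration from ATP synthesis.

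The libraries held 13346779 to 17779962 reads. Adiponectin (Adipoq), an adipocyte hormone, was present at 41781 to 93330 normalized reads in each of them, and Xist at 7480 to 10555 against at most 3.6 for Ddx3y. Pearson's r across the tested genes was 0.909 to 0.976 for the pairs of libraries, and was highest between LF-B and LF-C. Several libraries carried RNA of other tissues. The 30 kidney genes summed to 1250 RPM (reads scaled by the library total) in LF-A and to 16.3 to 34.9 in the other 5, with 2715 normalized reads of the phosphate transporter Slc34a1, 2340 of Miox and 1809 of Umod in LF-A and at most 14.2 of any of these in the others. Skeletal muscle genes summed to 11300 RPM in LF-A and 3680 in HF-B, against 136 to 296 elsewhere. The adrenal and steroidogenic list reached 1160 in HF-C and 28.5 to 109 elsewhere, with 10180 reads of Cyp11a1, the enzyme that opens steroid synthesis, and none of the adrenal enzymes Cyp11b1 and Cyp21a1. The ovary and uterus list stood at 187 RPM in HF-C and at 40.4 or less in the other 5. T cell genes summed to 152 in HF-A and to 14.4 to 28.3 elsewhere. The keratin Krt5 had 827 to 1602 reads in LF-B, LF-C, HF-B and HF-C, 0 in LF-A and 2 in HF-A. Gm42418, a locus that overlaps ribosomal RNA, took 5.25% of the reads of HF-A and 8.63% of those of HF-C, and 1.67% to 3.08% of the others.

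**Figure D1:**
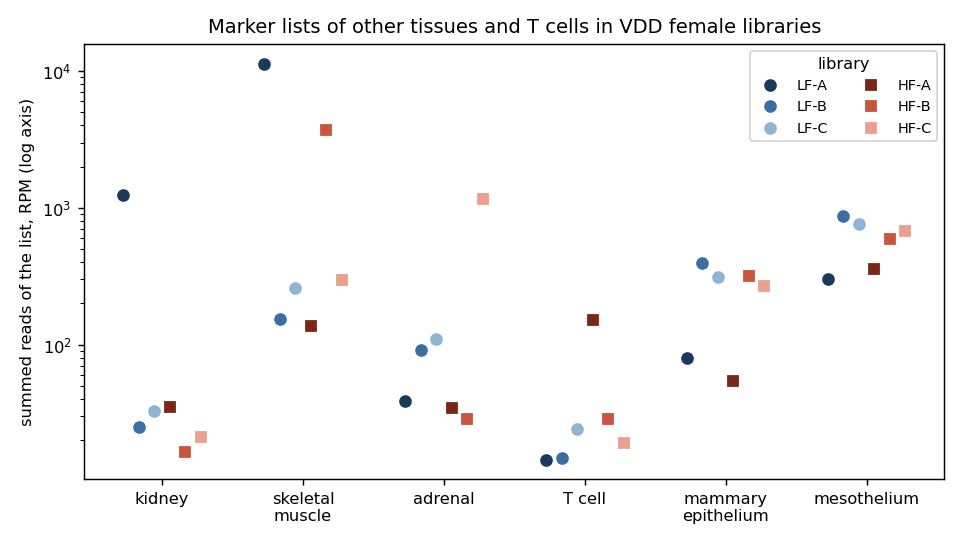
Summed RPM (log axis) of 6 marker lists in each of the 6 libraries, with circles for VDD LF and squares for VDD HF mice. LF-A stands at 1250 for kidney and 11300 for skeletal muscle, HF-B at 3680 for skeletal muscle, HF-C at 1160 for the adrenal list and HF-A at 152 for T cells.

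No gene passed the limma test of the VDD LF vs. VDD HF comparison. The study, which used DESeq2 and the same threshold, did report genes that differed in this comparison. The count of 0 is that of limma with the filter used here. DESeq2 was not run, and the source of the gap was not tested. The test covered 15923 genes that reached 10 normalized reads in 3 or more of the libraries. Of these, 0 (0.0%) reached an adjusted p below 0.01 with a fold change above 1.5 or below 0.66 in limma, 0 reached an adjusted p below 0.05, and the smallest adjusted p was 0.837. At an unadjusted p below 0.05 there were 804 genes (5.05%), of which 399 (2.51%) were higher and 405 (2.54%) lower in VDD HF, and limma-voom gave 0 calls and 777 such genes. The 3 HF libraries all lay above the 3 LF libraries for 883 genes (5.55%) and all below them for 965 (6.06%). The median log2 fold change of all tested genes was -0.01. Without LF-A, 485 of 15643 genes (3.1%) had an unadjusted p below 0.05, and again 0 were called. Every tested gene named below therefore had an adjusted p of 0.837 or more (limma), and single genes are given with the SE of their log2 fold change. Fold changes are on the log2(normalized reads + 1) scale, HF over LF, and understate those of genes with few reads.

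The cell cycle list had the largest share of genes at an unadjusted p below 0.05 among the lists examined. Of its 27 genes 26 were tested, and 25 of these were higher in VDD HF, 17 (65.4%) at an unadjusted p below 0.05 against 5.05% of all genes, 15 with all HF above all LF libraries. The median log2 fold change of the list was 0.93, beside -0.01 for all genes. Mki67, which encodes the Ki-67 protein of dividing cells, lies at chr7:135689784-135716361 (mm10, minus strand). It had 38.6, 44.5 and 62.9 normalized reads in the LF libraries and 255, 104 and 183 in the HF libraries. The groups did not overlap, and the difference was 3.5-fold (log2 1.81 ± 0.38 SE). Top2a, a topoisomerase that untangles replicated DNA, had 24.6, 33.6 and 48.1 reads against 153, 57.7 and 127 (log2 1.58 ± 0.44). Cdc20, an activator of the anaphase-promoting complex, had 14.0, 7.6 and 20.7 against 43.3, 28.4 and 41.6 (log2 1.44 ± 0.45). Ube2c, the ubiquitin-conjugating enzyme that works with that complex, had 35.1, 32.5 and 25.2 against 106, 45.8 and 73.7 (log2 1.19 ± 0.37). In all 4 genes HF-A was the highest library and HF-B the lowest of its group. Mcm2, a subunit of the replicative helicase, had 0.79 ± 0.25, whereas Mcm7 of the same helicase and Ccne1, a cyclin of the entry into S phase, had log2 differences of -0.06 and 0.06. Pclaf, a partner of the replication clamp, and Hmmr, a spindle protein, were outside the list and among the 10 largest increases with p below 0.01 and no overlap, at log2 2.27 ± 0.56 and 2.02 ± 0.50.

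**Figure D2:**
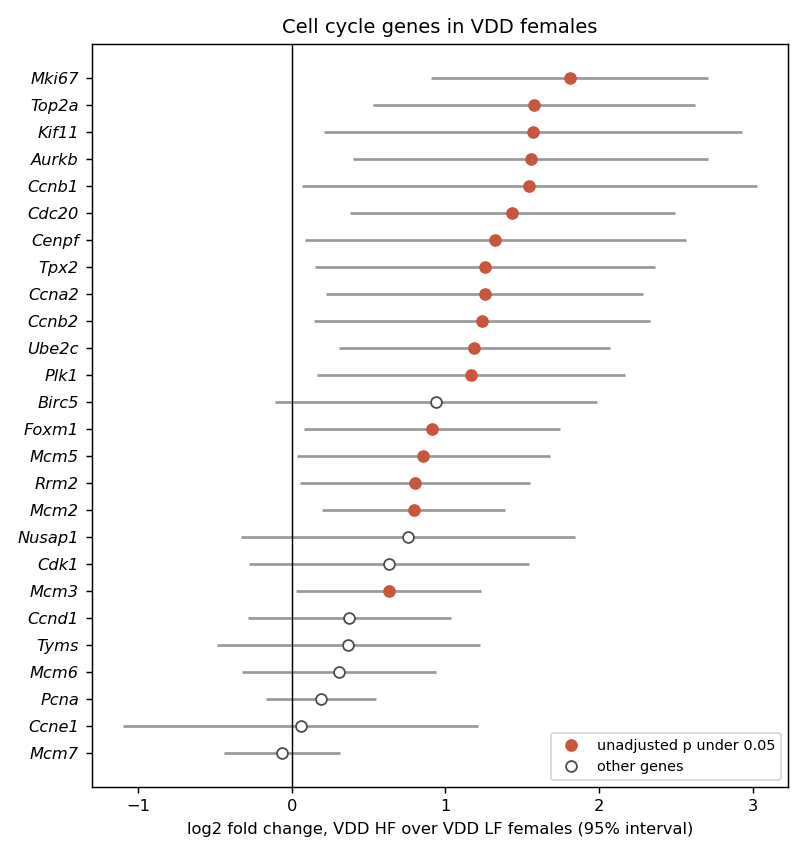
Log2 fold change (VDD HF over VDD LF females) of the 26 tested cell cycle genes with its 95% interval. Filled points mark the 17 genes at an unadjusted p below 0.05, and 25 of 26 genes lie to the right of 0.

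The count of cell cycle genes depended on single libraries. It was 10 without LF-A, 5 without HF-A and 5 without HF-C, and ranged from 5 to 18 over the 6 libraries left out in turn, while the median stayed between 0.75 (without HF-A) and 1.16 (without HF-B). HF-A was also the highest library for T cell, MHC class II and resident macrophage reads, and the part of these cells in the cell cycle genes was not tested.

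The promoters of the 4 cell cycle genes with the smallest p are shown because they hold matches of the CCAAT box and the element TTTGAA, the cell cycle genes homology region, that are known from genes of mitosis. The 250 bases before the RefSeq start site (GRCm38.p6, the build mm10) are given 5′ to 3′ on the strand of the gene, with CCAAT and TTTGAA on either strand in capitals. They lie at chr7:135716380-135716629 (minus), chr11:99024190-99024439 (minus), chr4:118437344-118437593 (minus) and chr2:164769679-164769928 (plus).
Mki67: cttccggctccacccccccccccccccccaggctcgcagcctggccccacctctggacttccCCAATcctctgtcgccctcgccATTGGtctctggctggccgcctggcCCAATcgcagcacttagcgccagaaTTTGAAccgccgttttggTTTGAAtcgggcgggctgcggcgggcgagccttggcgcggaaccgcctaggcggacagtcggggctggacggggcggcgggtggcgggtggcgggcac
Top2a: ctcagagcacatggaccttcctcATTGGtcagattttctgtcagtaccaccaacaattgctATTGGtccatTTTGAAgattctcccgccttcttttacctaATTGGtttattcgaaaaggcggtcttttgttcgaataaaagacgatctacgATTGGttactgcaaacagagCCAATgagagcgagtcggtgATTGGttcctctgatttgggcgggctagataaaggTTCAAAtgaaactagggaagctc
Cdc20: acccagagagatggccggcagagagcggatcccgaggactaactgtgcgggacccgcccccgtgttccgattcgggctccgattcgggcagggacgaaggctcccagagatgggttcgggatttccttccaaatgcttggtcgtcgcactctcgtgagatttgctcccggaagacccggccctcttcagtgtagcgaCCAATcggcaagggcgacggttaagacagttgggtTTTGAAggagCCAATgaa
Ube2c: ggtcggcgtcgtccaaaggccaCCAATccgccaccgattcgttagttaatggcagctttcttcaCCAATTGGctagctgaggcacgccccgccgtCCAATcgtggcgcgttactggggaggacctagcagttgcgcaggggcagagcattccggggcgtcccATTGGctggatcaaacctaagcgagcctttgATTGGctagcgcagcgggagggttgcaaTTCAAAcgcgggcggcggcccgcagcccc

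Mki67 held 3 CCAAT and 2 TTTGAA matches, Top2a 6 and 2, Cdc20 2 and 1 and Ube2c 6 and 1, where the CCAATTGG of Ube2c counts once on each strand. For 21 of the 26 tested cell cycle genes a promoter was at hand, 22 promoters in all. CCAAT was in 18 of these (81.8%), in 34.7% of the 14317 promoters of tested genes and in 33.8% of all 32851 promoters. TTTGAA was in 8 (36.4%), in 10.9% and in 16.0%, respectively, and all 8 also held CCAAT, as did 4.09% of the promoters of tested genes. These are matches of letters, not measured binding.

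Genes of fat expansion were higher in VDD HF females. All 6 genes of the list were higher, with a median log2 fold change of 0.68. At an unadjusted p below 0.05 there were 2 (33.3%), against 5.05% of all genes. The groups did not overlap for 3, against 5.55% of all genes that were higher without overlap. Mest, a gene expressed from the paternal copy whose level follows the enlargement of adipocytes (chr6:30723547-30748465, mm10, plus strand), had 153, 113 and 198 normalized reads in VDD LF and 530, 364 and 522 in VDD HF. The lowest HF library was above the highest LF library, and the difference was 3.07-fold (log2 1.62 ± 0.26, 95% interval 1.00 to 2.24). Lep, which encodes leptin, the hormone that reports fat stores to the brain (chr6:29060220-29073877, plus strand), had 1811, 1755 and 1910 reads against 3196, 2688 and 4867. The LF mice lay close together and below each HF mouse (1.9-fold, log2 0.93 ± 0.23). Sfrp5, a secreted Wnt inhibitor, had 42.1, 44.5 and 42.2 against 48.5 to 87.8 (log2 0.56 ± 0.30), and Npr3, the clearance receptor of natriuretic peptides, 2731, 1155 and 1368 against 4006, 3101 and 1867 (log2 0.81 ± 0.40). Without LF-A, the library with kidney RNA, the log2 difference of Mest was 1.63 and that of Lep 0.92.

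Of 14 tested imprinted genes of growth, 8 were higher, with a median of 0.08. At an unadjusted p below 0.05 there were 2 (14.3%, against 5.05% of all genes), Mest and Nnat. Nnat (neuronatin, a small membrane protein of the endoplasmic reticulum, also expressed from the paternal copy) had 1318, 3116 and 1987 reads in VDD LF and 7798, 5901 and 5491 in VDD HF. The groups did not overlap (3.14-fold, log2 1.65 ± 0.33). Sncg (gamma-synuclein, a protein abundant in adipocytes and nerve) had 503, 893 and 1218 against 8894, 1736 and 7396. HF-B was near the highest LF library and the other HF mice far above it (5.93-fold, log2 2.57 ± 0.64). Apln, which encodes the vascular peptide apelin, had 31.6, 13.0 and 13.3 against 59.0, 31.1 and 103, with a log2 difference of 1.65 ± 0.55 and of 2.05 without LF-A.

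**Figure D3:**
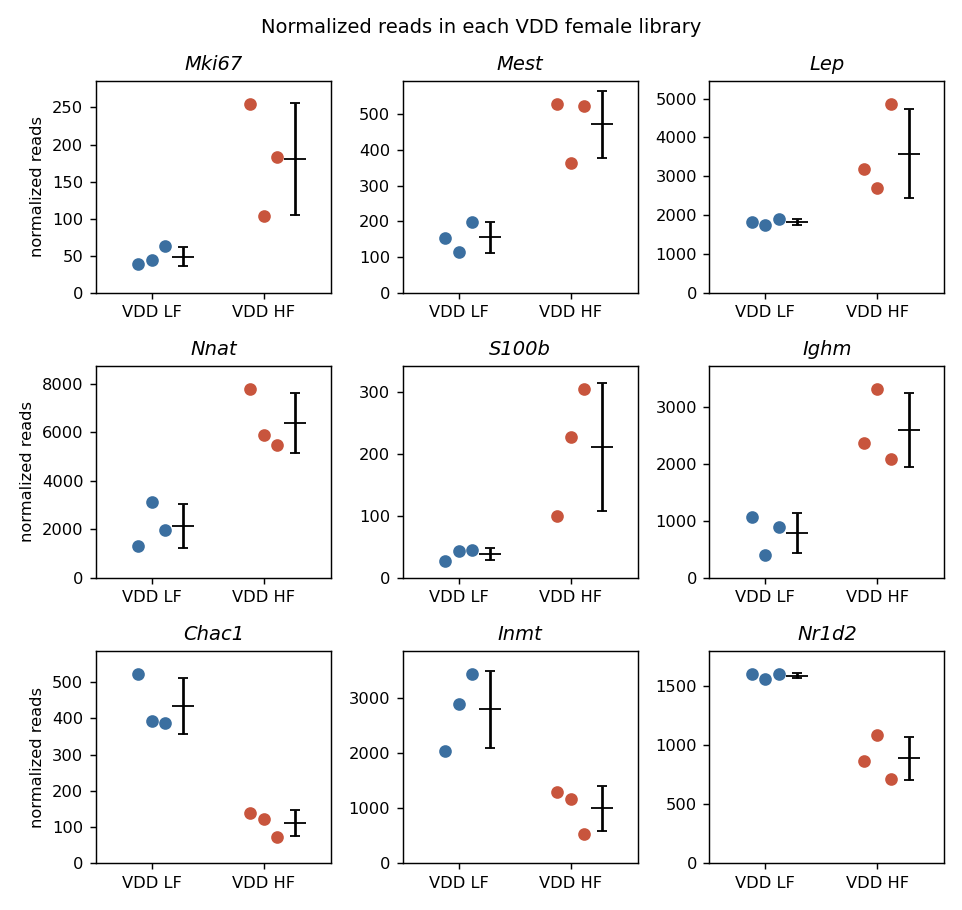
Normalized reads of 9 genes in each library of VDD LF (left) and VDD HF (right) females, with the mean and SD beside the points (n = 3 mice per group). In each panel the groups do not overlap, with Mki67, Mest, Lep, Nnat, S100b and Ighm higher and Chac1, Inmt and Nr1d2 lower in VDD HF. The panels were picked from genes named for a small p, so the lack of overlap reflects that choice. Of all tested genes, 5.55% lay higher and 6.06% lower without overlap.

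Thermogenic genes were highest in 2 of the 3 VDD HF mice. Summed, they had 723, 1180 and 1350 RPM in VDD LF and 1260, 2360 and 3380 in VDD HF, so that HF-A lay within the LF range. Of 18 tested genes 14 were higher, and the median log2 fold change was 1.25. At an unadjusted p below 0.05, 4 were higher (22.2%, against 5.05% of all genes). The groups did not overlap for 2, against 5.55% of all genes that were higher without overlap. Ucp1 had 3.5, 946 and 840 normalized reads in the LF libraries and 842, 4275 and 23396 in the HF libraries. Its range within each group was wide and the groups overlapped (log2 4.84 ± 2.19). S100b, a calcium-binding protein that brown and beige adipocytes secrete toward sympathetic nerves, had 26.9, 43.4 and 45.1 against 99.9, 227 and 304. Every HF mouse was above the LF mice (4.97-fold, log2 2.31 ± 0.45). The nerve and glia list summed to 427, 306 and 380 RPM in VDD LF and to 373, 290 and 520 in VDD HF. HF-C was the highest library for that list and for S100b, and HF-B the lowest for the list. The part of nerve RNA in the S100b values was not tested. Clstn3, whose adipocyte form promotes S100b secretion, had 329, 181 and 161 against 413, 460 and 1499 (log2 1.62 ± 0.53). Elovl3, a fatty acid elongase of brown fat, had 32.8, 49.9 and 23.7 against 37.3, 293 and 608 (log2 2.45 ± 0.95), and Fabp3, a fatty acid carrier of muscle and brown fat, 390, 215 and 158 against 272, 983 and 1665 (log2 1.69 ± 0.66). For Elovl3 and Fabp3 HF-A lay within the LF range. The median of the list was 2.05 without HF-A, 0.75 without LF-A, 0.70 without HF-B and 0.43 without both libraries with muscle RNA, LF-A and HF-B. At an unadjusted p below 0.05, 10 genes were higher and 1 lower without HF-A, and 2 were higher without HF-B or without LF-C. Without HF-C, the highest library for the list, 2 were higher and 1 lower at that level, with a median of 0.94.

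The median difference of the fatty acid oxidation genes was 0.42 on the log2 scale. Of 22 tested genes 17 were higher and none reached an unadjusted p below 0.05. Hadha, the alpha subunit of the mitochondrial trifunctional protein, had 6214, 6648 and 4184 reads in VDD LF and 4450, 11736 and 9568 in VDD HF, so that HF-A was with the LF mice and the others above them. Without HF-A 11 of the 22 genes were higher at an unadjusted p below 0.05, with a median of 0.70, and without HF-B 1 was lower, with a median of 0.17. The 44 genes of the respiratory chain had a median of 0.09, with 31 higher and none at an unadjusted p below 0.05. That median was -0.17 without LF-C, where 34 genes were lower, 5 of them at an unadjusted p below 0.05, and 0.28 without HF-A.

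Immunoglobulin and B cell genes were higher in VDD HF. All 15 tested B cell genes were higher, with a median of 1.14. At an unadjusted p below 0.05 there were 5 (33.3%, against 5.05% of all genes). The groups did not overlap for 4, against 5.55% of all genes that were higher without overlap. Ighm, the constant region of IgM, had 1063, 402 and 898 reads in VDD LF and 2377, 3320 and 2082 in VDD HF (3.49-fold, log2 1.80 ± 0.38). The groups did not overlap. Cd79a, a signalling chain of the B cell receptor, had 51.5, 15.2 and 24.4 against 79.4, 55.9 and 51.0. LF-A lay at the lower edge of the HF values (log2 1.15 ± 0.47). Mzb1, a chaperone of antibody secretion, had 11.7, 4.3 and 3.0 against 30.1, 50.4 and 14.2 (log2 2.17 ± 0.65). In a bulk library, more cells of a type and more RNA per cell cannot be told apart. Without LF-B the median of the list was 0.75, and it was 1.27 without LF-A. The 5 genes at an unadjusted p below 0.05 became 1 when HF-A, HF-B, LF-B or LF-C was left out, and 9 without HF-C, and each gene tested was higher in all of these sets.

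T cell, MHC class II, resident macrophage and chemokine genes leaned higher, and HF-A was the highest library for the sum of each list. The 11 tested T cell genes were all higher (median 1.27, 0.34 without HF-A) and so were the 11 genes of MHC class II (0.85, 0.22 without HF-A), with 0 of either list at an unadjusted p below 0.05. MHC class II summed to 656, 704 and 1310 RPM in VDD LF and to 4380, 956 and 834 in VDD HF. Of 20 resident macrophage genes 19 were higher (median 0.54, and -0.10 without HF-A), 0 at an unadjusted p below 0.05. Itgax, the integrin CD11c of inflammatory macrophages and dendritic cells, had 14.0, 16.3 and 22.9 reads against 278, 43.0 and 44.4. Each HF mouse was above the LF mice (log2 2.16 ± 0.73). Adgre1, the macrophage marker F4/80, had 163, 158 and 494 against 1020, 174 and 234 (log2 0.57 ± 0.73). Trem2, a lipid receptor of macrophages, had 28.1, 46.6 and 14.8 against 77.0, 11.9 and 69.9 (log2 0.57 ± 0.77). Without HF-C 5 T cell genes were higher at an unadjusted p below 0.05, and 3 MHC class II genes were so without HF-B or HF-C and 3 resident macrophage genes without HF-B.

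Of 25 tested chemokines and chemokine receptors, 24 were higher (median 0.63, 0.12 without HF-A). At an unadjusted p below 0.05, 4 were higher (16%, against 5.05% of all genes). They were Ccl22, Cxcl9, Cxcl10 and Cx3cr1. Of this list 1 gene was higher at that level without LF-B, 2 without LF-A and 7 without HF-B, and 3 were higher and 2 lower without HF-A. Cxcl9, an attractant of T cells induced by interferon gamma, had 631, 408 and 463 reads against 2738, 1079 and 657, the lowest HF value being just above the highest LF value (log2 1.34 ± 0.49). Ccl2, the monocyte attractant, had 12.9, 6.5 and 14.8 against 93.9, 7.3 and 36.9, with HF-B in the LF range (log2 1.40 ± 0.87). Of the 20 tested cytokine genes 4 (20%, against 5.05% of all genes) reached an unadjusted p below 0.05, all higher, namely Il1rn, Myd88, Csf1 and Tgfb1. Without LF-A 1 did, without each of the other 5 libraries 2 were higher (and 1 lower without HF-A or HF-B), and without HF-A the median was 0.08, against 0.26 with all libraries. The cytokines Tnf, Il1b and Il6 did not pass the filter on low reads, with at most 8.4 normalized reads of Il1b and 2.4 of Il6 in any library and at most 4.4 of Tnf in any library but HF-A. The interferon response list had 22 of 25 genes higher, 3 at an unadjusted p below 0.05 (12%, against 5.05% of all genes), with a median of 0.45. Without HF-A 17 genes were higher, 1 at an unadjusted p below 0.05, with a median of 0.22. There were 0 such genes without LF-B, 5 without LF-C and 8 without HF-B.

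Collagens and matrix genes were higher, with 28 of 34 genes above 0 and a median of 0.55. At an unadjusted p below 0.05, 7 were higher and 1 lower (23.5%, against 5.05% of all genes). Col4a1, a chain of basement membrane collagen, had 6220, 5543 and 6691 reads in VDD LF and 9442, 7903 and 10056 in VDD HF, with no overlap (log2 0.57 ± 0.20). Tnc, the matrix protein tenascin C, had 110, 74.8 and 112 against 154, 473 and 231 (log2 1.39 ± 0.42). Col1a1, the main fibrillar collagen, had 628, 800 and 941 against 2078, 785 and 2924. HF-B was within the LF range and the other HF mice above it (log2 1.11 ± 0.46, and 0.96 without LF-A, where its unadjusted p was no longer below 0.05). Thbs2, a thrombospondin that restrains vessel growth, went the other way, with 1595, 3043 and 3843 against 1969, 1331 and 636 (log2 -1.16 ± 0.48). The number of matrix genes at an unadjusted p below 0.05 was 1 without LF-B, 2 without HF-C, 4 without HF-A, 5 without LF-A or LF-C and 19 without HF-B.

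Chac1 had the smallest p among the genes lower in VDD HF. Chac1, an enzyme that degrades glutathione and is induced by the ATF4 branch of the stress response (chr2:119351229-119354381, mm10, plus strand), had 523, 392 and 388 reads in VDD LF and 138, 122 and 70.9 in VDD HF. The groups were far apart, and the LF mean was 4.02-fold the HF mean on the fitted scale (log2 -2.01 ± 0.29, 95% interval -2.69 to -1.33). Inmt, an indolethylamine methyltransferase, had 2037, 2884 and 3427 against 1284, 1161 and 523 (log2 -1.56 ± 0.37). Fmo2, a flavin-containing monooxygenase of stromal cells, had 1735, 1881 and 3176 against 1054, 1016 and 593 (log2 -1.34 ± 0.31). Lcn2, the iron-siderophore carrier lipocalin 2, had 53.8, 97.6 and 112 against 24.1, 17.4 and 43.5 (log2 -1.63 ± 0.44). None of these 4 genes overlapped between the groups, but they were named from genes without overlap, so this reflects the choice. Of all tested genes, 6.06% were lower without overlap. Without LF-A the log2 differences of the 4 genes were -1.87, -1.77, -1.51 and -1.95.

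Other genes with a large deficit in VDD HF were highest in the library with kidney RNA. Cldn2, a claudin of leaky epithelia such as the proximal tubule, had 689, 49.9 and 34.0 reads in VDD LF and 0, 0 and 8.5 in VDD HF. Kcnj15, a potassium channel, had 1618, 497 and 403 against 74.6, 159 and 78.5, and Prom1, the epithelial and progenitor protein CD133, 265, 70.5 and 78.4 against 24.1, 21.1 and 27.4. For all 3 genes LF-B and LF-C, whose kidney lists were at 24.9 and 32.9 RPM, were also above each HF mouse. These 3 genes were named from those without overlap between the groups, so this order follows from the choice. Without LF-A the log2 difference was -2.18 for Kcnj15 and -1.59 for Prom1, and Cldn2 no longer passed the filter. The part of kidney RNA in the values with all 6 libraries was not tested.

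The clock list had a median of -0.29 on the log2 scale, with 15 of 19 lower. At an unadjusted p below 0.05, 3 were lower (15.8%, against 5.05% of all genes). Nr1d2, the clock repressor REV-ERB beta, had 1599, 1559 and 1597 reads in VDD LF and 863, 1079 and 712 in VDD HF. The LF mice were almost alike and each was above the HF mice (log2 -0.86 ± 0.18). Dbp, a clock output factor, had 666, 392 and 463 against 312, 230 and 397 (log2 -0.69 ± 0.28), and Rora had -0.84 ± 0.35. Without LF-A 1 clock gene was lower at an unadjusted p below 0.05, and without HF-B 5 were. The sources used here do not give the hour of tissue collection.

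Lipogenic genes varied widely within the LF group. Of 21 tested genes of de novo lipogenesis 7 were higher and 14 lower, 0 at an unadjusted p below 0.05, with a median of -0.24 that became 0.02 without LF-A. Without LF-C 5 were lower at an unadjusted p below 0.05. Scd1, the desaturase that makes oleate, took 11.1%, 7.39% and 5.22% of all reads in the LF libraries and 3.91%, 4.08% and 2.02% in the HF libraries. The groups did not overlap, at a log2 difference of -1.28. Its SE was 2.05 in limma and 0.54 in limma-voom. Fasn, the fatty acid synthase, had 162698, 89851 and 29018 reads against 24863, 77379 and 63556, which overlapped. Tkt, the transketolase of the pentose phosphate pathway, had 81416, 54589 and 24542 against 20223, 26993 and 16016 (log2 -1.21 ± 0.52).

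Genes of vitamin D handling had a median of -0.01 over 8 tested genes, 4 higher and 4 lower. Vdr, the vitamin D receptor, had 532, 35.8 and 54.0 reads in VDD LF and 32.5, 33.9 and 30.2 in VDD HF. LF-A was far above the other LF mice, and was also the only one of the 6 libraries with reads of Cyp24a1, the catabolic enzyme of kidney, at 536 reads. Without that library the log2 difference of Vdr was -0.44.

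**Figure D4:**
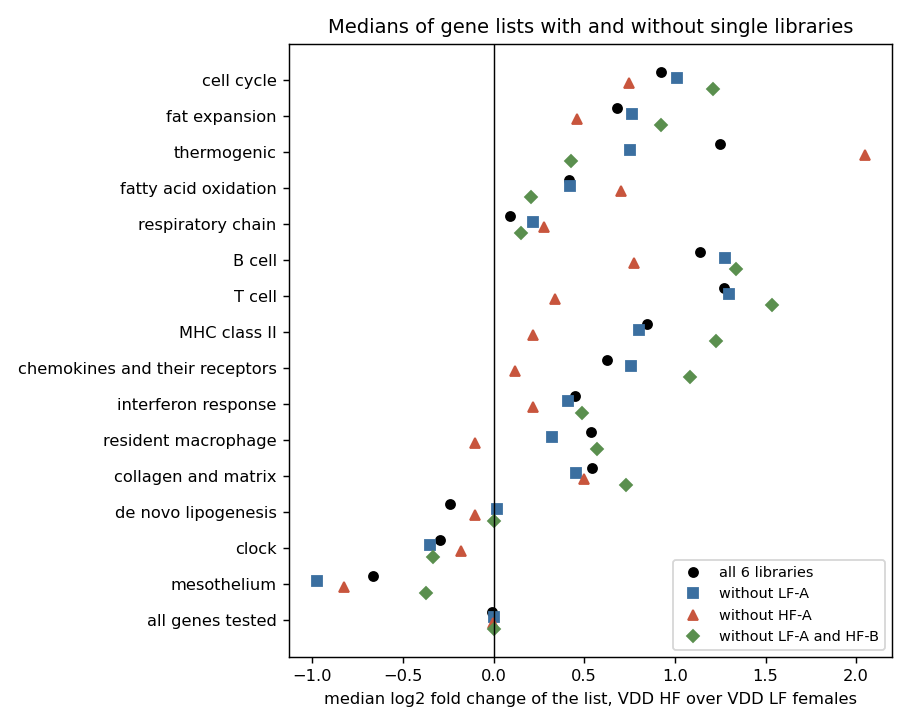
Median log2 fold change (VDD HF over VDD LF females) of 15 gene lists and of all tested genes, with all 6 libraries and with single libraries left out. The cell cycle median lies between 0.75 and 1.21 in all 4 sets, whereas MHC class II, chemokines and resident macrophages are near 0 without HF-A and thermogenic genes range from 0.43 to 2.05.

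The same diets were compared in the 6 CTRL females and the 6 VDD males, which share no library with the VDD females in these 2-group fits. In CTRL females 4762 of 16563 genes (28.8%) had an unadjusted p below 0.05 and 1225 (7.4%) an adjusted p below 0.05. In VDD males the numbers were 4138 of 15965 (25.9%) and 854 (5.35%). At an adjusted p below 0.01 with the fold change, limma called 0 genes in CTRL females and 12 in VDD males. Across 15588 genes the log2 fold changes of VDD females and CTRL females had a Pearson's r of 0.26, and across 15096 genes those of VDD females and VDD males one of 0.38. Of 512 genes that were higher in CTRL females at an adjusted p below 0.05, 384 (75%) were also higher in VDD females, against 49.1% of all genes tested there, and 30 (5.86%) were so at an unadjusted p below 0.05, against 2.51%, and the median of the 512 was 0.99 in CTRL females and 0.28 in VDD females. Of 679 genes lower in CTRL females, 549 (80.9%) were lower in VDD females, against 50.9% of all genes, and 75 (11%) were so at an unadjusted p below 0.05, against 2.54%. Their medians were -0.90 and -0.29. Cell cycle genes had medians of 0.97 in CTRL females, 0.93 in VDD females and 1.39 in VDD males.

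The difference between the HF response of VDD females and that of CTRL females was tested in one model of 12 libraries. None of 17474 genes was called and the smallest adjusted p was 0.569 (limma), with 1353 genes (7.74%) at an unadjusted p below 0.05 and 0 calls in limma-voom. Of the 22 fatty acid oxidation genes 17 had a more positive response in VDD females and 1 a more negative one at an unadjusted p below 0.05 (81.8%), with a median difference of 1.22. The list median was -0.81 in CTRL females, where 20 of 21 tested genes were lower at an unadjusted p below 0.05, and 0.42 in VDD females. Summed, these genes had 7250, 7140 and 5200 RPM in CTRL LF, 4230, 3590 and 3540 in CTRL HF, 5390, 7530 and 5960 in VDD LF and 4810, 12500 and 8110 in VDD HF. All CTRL HF libraries lay below the CTRL LF libraries, whereas the VDD groups overlapped. Slc25a20, the carnitine-acylcarnitine carrier, had the smallest p of the list and a difference of 1.71 ± 0.39. Of the 18 thermogenic genes 10 had a more positive response in VDD females at an unadjusted p below 0.05 (55.6%), with a median difference of 1.90. HF-B, the highest library for fatty acid oxidation, held 3680 RPM of muscle genes, one CTRL LF library held 4730 and one CTRL HF library 2120, and LF-A, with 11300, was the lowest VDD LF library for the list. Without HF-B 11 oxidation genes and 9 thermogenic genes had a more positive response at an unadjusted p below 0.05, and without LF-A 15 and 9. The part of muscle RNA was not tested.

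The 5 genes with the smallest p of this difference are given as examples. They were chosen by that p, so that opposite or unequal responses follow from the choice. Prkcz, an atypical protein kinase C, had 82.8, 92.7 and 80.8 reads in VDD LF and 42.2, 45.9 and 48.1 in VDD HF, but 45.8, 61.1 and 35.3 in CTRL LF and 99.2 to 115.6 in CTRL HF (counts scaled over the 12 libraries). The diet groups did not overlap in either maternal group, with opposite order (difference -2.06 ± 0.31, adjusted p = 0.569 in limma). Hdac11, a histone deacetylase, and Cobl, an actin nucleator, had the same pattern (-1.52 ± 0.27 and -2.30 ± 0.41), and Adcy3, an adenylyl cyclase, the reverse order. Sephs2, the selenophosphate synthetase, had 2405, 2240 and 1696 in VDD LF and 1925, 2134 and 1442 in VDD HF, which overlapped, while CTRL LF had 1675, 1644 and 1726 and CTRL HF 649, 664 and 639 (1.16 ± 0.23).

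The HF response of VDD females was also set against that of VDD males in one model of 12 libraries. Skeletal muscle genes summed to 79.7, 4040 and 79500 RPM in the VDD LF males and to 20700, 33200 and 183 in the VDD HF males. The part of this muscle RNA in the differences was not tested. None of 17207 genes was called at an adjusted p below 0.01 with the fold change, 9 (0.0523%) had an adjusted p below 0.05 (limma; 0 in limma-voom), and 1482 (8.61%) an unadjusted p below 0.05. All 6 fat expansion genes had a smaller response in females at an unadjusted p below 0.05, with a median difference of -3.46, and this held for all 6 genes with each of the 12 libraries left out. The median response of these genes was 0.68 in VDD females, 4.29 in VDD males and 1.96 in CTRL females. Bmp3, a growth factor of the BMP family, had 319, 484 and 349 reads in VDD LF females, 427, 561 and 302 in VDD HF females, 99.2, 130 and 89.8 in VDD LF males and 1192, 1031 and 1241 in VDD HF males. The female groups overlapped and the male groups lay far apart (difference -3.30 ± 0.34, adjusted p = 0.0194 in limma). Lep had 1865, 1817 and 1988 against 3279, 2784 and 5077 in females, and 113, 609 and 436 against 15211, 15327 and 13945 in males (-4.64 ± 0.69, adjusted p = 0.0555). The LF females were above the LF males and the HF females below the HF males. Collagen and matrix genes had a smaller response in females for 11 of 34 genes (32.4%) at an unadjusted p below 0.05, with a median difference of -0.96. This count was 4 without LF-C or without 1 VDD LF male, 6 without HF-B or without 1 VDD HF male, and 14 without another VDD LF male. Both differences use the same 6 VDD female libraries.

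**Figure D5:**
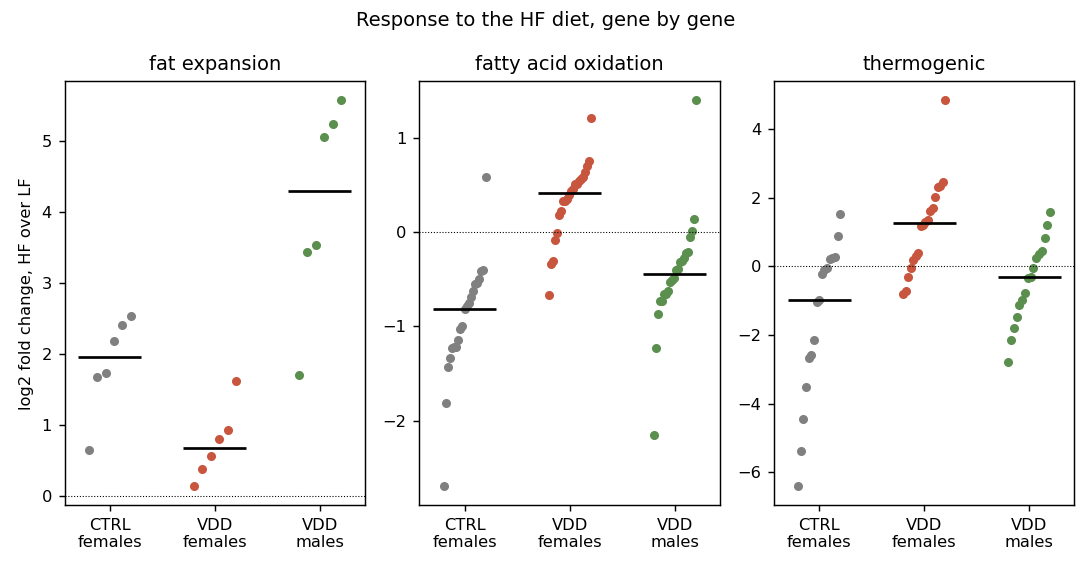
Log2 fold change (HF over LF) of each tested gene of 3 lists in CTRL females, VDD females and VDD males, with bars at the medians. Fat expansion genes have medians of 1.96, 0.68 and 4.29, and fatty acid oxidation genes of -0.81, 0.42 and -0.44.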

How the data were processed

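Total RNA of retroperitoneal adipose tissue was made into stranded mRNA libraries. Per the submitters' processing notes and the study's methods, reads were aligned to mm10 with STAR 2.7.0d, and the authors assembled further transcripts with Cufflinks 2.2.1, counted reads with featureCounts 1.6.1 and compared groups with DESeq2. SAMtools 1.9 is also named. The authors deposited, for each comparison, log2(normalized reads + 1) of 6 libraries over 56899 entries. Their columns of fold changes and p-values hold the authors' own comparisons and were not used. Of the gene names 26 had become dates in a spreadsheet, and 4 entries that shared such a name were dropped, leaving 56895 genes and assembled loci. Undoing the log2 and the size factors gave whole reads for 100% of values, within 0.02 of a whole number, and the reads served for library totals, interactions and limma-voom. Depth was 13346779 to 17779962 reads in the 6 libraries, and the precision is limited by 3 mice per group.

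Columns were mapped to groups by name, and the number in each column is the mouse, whose order gave the letters A to C. The column names of 6 of the 24 libraries, LF-C among them, also hold the word renal, whose meaning the sources do not explain, and the kidney list of LF-C stood at 32.9 RPM. Genes that reached 10 normalized reads in 3 or more libraries were tested with limma 3.58.1 (R 4.3.3, moderated with a variance trend) on the deposited log2 values, with Benjamini-Hochberg adjustment. The threshold of the study, adjusted p below 0.01 with a fold change above 1.5 or below 0.66, was used with limma in place of the authors' DESeq2. The difference of 2 responses was an interaction in one fit of 12 libraries, scaled by the median of ratios. Lists were described by counts and medians. The comparison, the 44 lists (35 of biology, 9 of other tissues) and their members were chosen with earlier results of these data known, so they are no independent evidence. Named genes were the 4 of a list with the smallest p, a fixed set (Lep, Mest, Ucp1, Scd1 and the like), the 10 largest differences in each direction at p below 0.01 without overlap, the same without LF-A, the 5 leading genes of each interaction and the 5 leading kidney genes. The genes Hadha, Mcm2, Mcm7, Ccne1, Cd79a, Il1b and Il6, the marker genes of other tissues, and Fasn and Tkt as examples were named after their values were seen where the rule did not give them. Figures were drawn with Python 3.11.15 and matplotlib 3.10.9. Alternatives were limma-voom, a pseudocount of 10, no filter, trimmed mean of M-values, library weights, kidney reads as covariate, all 12 female libraries, and each library left out. Leaving out both libraries with muscle RNA was chosen after seeing the data. RefSeq promoters and GENCODE M21 positions are of GRCm38, which is mm10.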

Additional observations from a re-analysis of the deposited data

Results flagged for a closer look

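The difference between the HF response of VDD females and of VDD males had an adjusted p below 0.05 (limma interaction) for 9 genes, each given as the log2 response of females minus that of males. It was -3.30 for Bmp3, 1.58 for Kyat3, a kynurenine aminotransferase, -3.79 for Cdkl4, a kinase, -1.95 for Adamts5, an aggrecanase, and 2.05 for Lncbate1, a long noncoding RNA of brown fat. The assembled locus XLOC_001197 had -1.83 and the transcript 1700047G03Rik -5.32. Mup-ps21, a pseudogene of the major urinary proteins, had -5.57 and Gm43069 -5.08, and both had at most 0.8 scaled reads in each VDD female and LF male library, so that these values depend on the pseudocount. Mup-ps21 reads may also be shared with near-identical copies.

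Most of the contrast in these genes lay in the males. Kyat3 had 600, 650 and 498 scaled reads in VDD LF females, 665, 676 and 672 in VDD HF females, 917, 747 and 698 in VDD LF males and 300, 299 and 309 in VDD HF males. Adamts5 had 953, 868 and 927, 1512, 831 and 1187, 722, 897 and 863, and 4361, 3565 and 4017 in the same order. The male HF libraries were apart from all others in both genes. With limma-voom 0 genes had an adjusted p below 0.05.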

How the results depend on the processing

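No paired analysis was possible by replicate number, because the columns carry mouse numbers and not the replicate numbers of the labels. Per the study's methods, offspring were assigned to the diets at random. The sources used here name no pairs of LF and HF mice, so the groups were compared as unpaired. No gene was called under any alternative for the VDD LF vs. VDD HF females, single libraries left out included. Its 804 genes at an unadjusted p below 0.05 were 1770 with all 12 female libraries in one fit, 1590 of 31475 with no filter, 1690 with library weights, and 286 (without LF-B) to 1233 (without HF-B) with single libraries left out (485 without LF-A). The library weights were estimated gene by gene because the default estimate did not converge. The maternal interaction had 0 calls throughout. The sex interaction had 0 calls, 3 with no filter, 9 with a pseudocount of 10 and 0 to 2 with single libraries left out (2 and 1 without single VDD LF males). Its 9 genes at an adjusted p below 0.05 (limma) were 28 with a pseudocount of 10, 0 in limma-voom and 0 to 38 with single libraries left out. The 38 came without the VDD LF male library that held 79500 RPM of skeletal muscle genes.

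The 17 cell cycle genes were 5 to 18 with single libraries left out (7 without LF-B, 11 without LF-C, 10 without LF-A), the 17 oxidation genes of the maternal interaction 11 (without 1 CTRL HF library, HF-B or LF-C) to 19, the 10 thermogenic genes 8 to 13 and the 6 fat expansion genes of the sex interaction 6. The medians of lists ranged, with single libraries left out, from 0.75 to 1.16 for cell cycle, 0.46 (without HF-A) to 0.76 for fat expansion, 0.70 to 2.05 for thermogenic, 0.75 to 1.35 for B cell, 0.37 to 0.77 for collagen and matrix and 0.17 to 0.70 for fatty acid oxidation. Fat expansion was 0.92 without LF-A and HF-B both. The gene Mcm7, at -0.06, turned to 0.00 without HF-C and 0.03 without LF-C, within -0.14 to 0.03. The other directions of the 38 genes so examined held in every alternative run. The causes were not tested.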

Other observations

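All 14 mesothelial markers had a log2 fold change below 0 in VDD HF females, 1 (7.14%) at an unadjusted p below 0.05 against 5.05% of all genes. The median was -0.66 (range -1.15 to -0.20 over the libraries left out), and without HF-B 9 genes were lower and 5 higher. Summed, the list had 299, 871 and 759 RPM in VDD LF and 356, 596 and 672 in VDD HF. The sums overlapped, and LF-A was the lowest library. Prg4, the lubricating proteoglycan lubricin, had 138, 235 and 283 normalized reads in VDD LF and 91.5, 81.5 and 97.4 in VDD HF (log2 -1.21 ± 0.30). Each LF mouse was above the HF mice. In CTRL females the median of the same list was 0.86, with 8 genes higher at an unadjusted p below 0.05.

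Il1rn, which encodes the antagonist of the interleukin 1 receptor, had 2.3, 16.3 and 19.2 normalized reads in VDD LF and 56.6, 53.1 and 35.0 in VDD HF (log2 2.19 ± 0.72 in limma, and 1.37 without LF-A). The groups did not overlap. Bst2, the membrane tether of enveloped viruses, had 592, 517 and 596 against 1186, 674 and 1055, also without overlap (log2 0.73 ± 0.23).

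The median over all genes was -0.01. Of 17 adipocyte identity genes 6 were higher (median -0.18), of 18 genes of fatty acid uptake and triglyceride synthesis 5 (median -0.25), of 11 adipokines 5 (median -0.05) and of 25 cholesterol synthesis genes 15 (median 0.05). With single libraries left out the cholesterol median ran from -0.32 (without HF-C) to 0.38 (without HF-A, 4 genes higher at an unadjusted p below 0.05) and the adipokine median from -0.28 (without LF-C) to 0.21 (without LF-A), whereas those of adipocyte identity (-0.37 to -0.03) and of fatty acid uptake and triglyceride synthesis (-0.30 to -0.09) stayed below 0.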
